A study of Mus musculus with 10 samples.

Results

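The genes described here are 7 kallikreins (Klk7, Klk8, Klk10, Klk11, Klk12, Klk13 and Klk14) and Spink5, 8 of the 24421 genes of the count table, taken by gene symbol. They were measured by total RNA sequencing in 5 libraries of lung squamous cell carcinoma (SCC) induced with NTCU, a nitrosourea carcinogen, and in 5 libraries of normal lung without treatment. All mice were wild type (wt) animals of the NIH Swiss stock, with no age stated in the labels. The tissue was formalin-fixed and paraffin-embedded, and laser capture was used to take regions from it. Which animal a library came from is not stated. The p-values therefore measure the spread between libraries, some of which may be technical, and are too small if regions share an animal.

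Kallikreins are secreted serine proteases made as inactive precursors and encoded side by side in one cluster. In human epidermis several of them activate each other in a cascade and cut the corneodesmosomes, the junctions that hold cornified cells together, so that the outermost cells are shed. Spink5 encodes LEKTI, a chain of Kazal-type inhibitor domains that holds these proteases back, and its loss in humans causes Netherton syndrome, a disease of excessive shedding and barrier failure. Healthy alveolar lung has no cornifying epithelium.

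Total counts per library ran from 1004105 to 3691806 in SCC and from 1457641 to 6817106 in normal lung. The labelled tissues were checked by markers. The 6 squamous markers (Krt5, Krt14, Krt6a, Trp63, Dsg3 and Krt13) summed to 721 to 5231 CPM (counts scaled to the library total) in SCC and 1.07 to 7.55 CPM in normal lung, and the 6 markers of alveolar type 2 cells to 393 to 714 CPM in SCC and 7121 to 10300 CPM in normal lung. Counts on chemosensory receptor genes, which served as a gauge of background, were 3.27 to 3.5 CPM per kb of coding sequence in SCC 1, SCC 3 and SCC 4, 0.413 to 0.595 in SCC 2 and SCC 5, and 0.0421 to 0.209 in normal lung. A background of that size per kb of exon was estimated for every gene with a known length. SCC 3 and SCC 4 were also closer to each other than any other pair within a group. Their counts gave a chi-square of 2.93 for each degree of freedom, where every other pair gave at least 11.5.

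Spink5 and 4 of the kallikreins (Klk10, Klk13, Klk11 and Klk8) were higher in SCC, Klk14 did not pass the test, and Klk7 and Klk12 had too few counts for the test. Of the 6 genes that passed the filter on low counts, 5 were called higher and 0 lower (quasi-likelihood test of edgeR, adjusted p under 0.05 by Benjamini-Hochberg over 13203 genes). Among all genes tested 12.5% were called higher and 8.68% lower. The 5 genes passed the filter through their SCC libraries, since at most 1 normal library reached its limit of 4.69 CPM for any of them, so their count is a description. In 5 of the 6 genes every SCC library was above every normal library, as in 8.81% of all genes tested, and in none was every SCC library below, as in 5.77%. In bulk regions a larger number of squamous cells and more RNA per cell cannot be told apart.

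**Figure D1:**
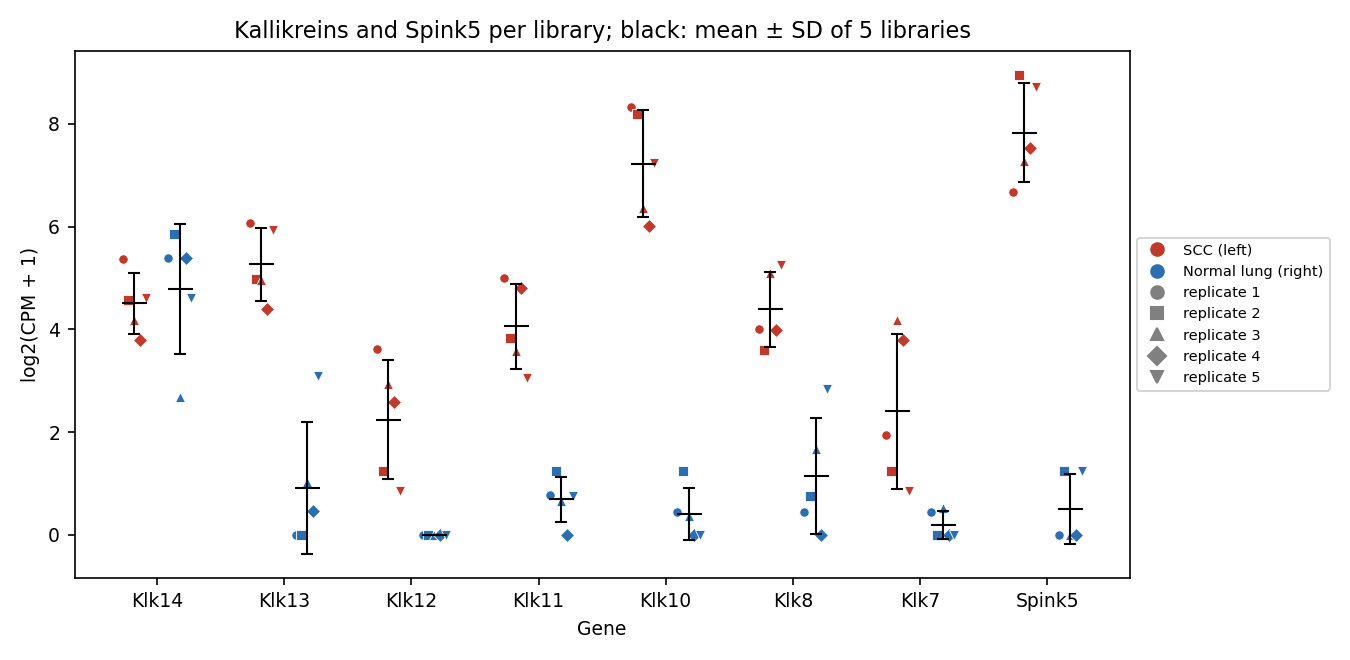
Log2(CPM + 1) of the 7 kallikreins in chromosomal order and of Spink5, with red for SCC at left and blue for normal lung at right, marker shapes for replicates, and the mean with its SD (n = 5) in black. The groups overlap for Klk14, and Klk10 and Spink5 stand farthest apart.

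The kallikreins lie in one cluster on chromosome 7 (GRCm38, the assembly of mm10, GENCODE M21), all on the plus strand. In order of position the members are Klk14 (43690418 to 43695536), Klk13 (43712567 to 43727534), Klk12 (43768897 to 43773585), Klk11 (43774604 to 43779263), Klk10 (43781035 to 43785410), Klk8 (43797577 to 43803826) and Klk7 (43811294 to 43816359). Klk9 sits between Klk10 and Klk8. A noncoding transcript on the minus strand, 2310002F09Rik (43695209 to 43797958), spans the stretch from the end of Klk14 to the start of Klk8 and shares 287 bases of exon with Klk14 and 382 with Klk8. It had 48 counts in SCC and 1 in normal lung, and its estimated background was larger than its SCC counts (132.6%). No source used here says whether the counting was by strand, so reads of these overlaps cannot be told apart.

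Start-site windows of 300 bases (250 before and 50 after the start, RefSeq, GRCm38.p6) were found for the 7 kallikreins, 8 windows in all because Klk11 has an additional start. Klk10 and Klk8 are shown as called members whose windows hold the stretch in capitals, and Klk14 as the tested kallikrein that was not called. They lie at chr7:43780804-43781103, chr7:43797327-43797626 and chr7:43690168-43690467, all on the plus strand.
Klk10: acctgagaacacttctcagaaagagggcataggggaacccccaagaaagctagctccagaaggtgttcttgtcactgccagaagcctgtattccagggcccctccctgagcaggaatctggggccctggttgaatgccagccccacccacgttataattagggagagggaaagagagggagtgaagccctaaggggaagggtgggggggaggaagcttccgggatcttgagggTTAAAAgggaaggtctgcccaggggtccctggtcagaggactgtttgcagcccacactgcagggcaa
Klk8: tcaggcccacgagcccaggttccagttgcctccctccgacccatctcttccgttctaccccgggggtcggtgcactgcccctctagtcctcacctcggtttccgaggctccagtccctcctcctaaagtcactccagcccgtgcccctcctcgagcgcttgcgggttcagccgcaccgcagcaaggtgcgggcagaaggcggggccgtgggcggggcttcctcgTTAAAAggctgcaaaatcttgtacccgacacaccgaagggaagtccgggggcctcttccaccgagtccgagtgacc
Klk14: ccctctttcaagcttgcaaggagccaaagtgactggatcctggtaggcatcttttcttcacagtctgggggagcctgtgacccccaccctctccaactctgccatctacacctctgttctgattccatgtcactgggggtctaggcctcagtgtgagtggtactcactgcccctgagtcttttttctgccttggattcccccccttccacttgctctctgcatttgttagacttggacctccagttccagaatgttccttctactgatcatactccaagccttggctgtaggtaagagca
Capitals mark TTAAAA, a stretch searched for on both strands after the windows had been read. Counted from the RefSeq start site, it begins 17 bases before that site in Klk10 and 26 bases before it in Klk8. The GENCODE start of Klk10 given above lies further upstream, and by that start the stretch falls just inside the gene. Another match, 233 bases before a start site of Klk11, makes 3 of 8 windows, and 19.2% of 32851 windows of all genes hold the stretch. It is absent from the window of Klk13 and from the other window of Klk11, although both genes were called higher. None of the 8 windows holds TGANTCA, the AP-1 site, TATAAA, the TATA box, or AACNNGTT, a grainyhead site, on either strand, against 7.81%, 13.6% and 4.2% of all windows.

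Spink5, the inhibitor, had the highest mean CPM of the 8 genes in SCC. It had 101.8, 496, 154, 184 and 418 CPM in SCC 1 to SCC 5, against 0, 1.37, 0, 0 and 1.37 CPM in normal 1 to normal 5. The lowest SCC library was far above the highest normal one, and SCC 2 and SCC 5 were the highest. All 4 counts in normal lung came from normal 2 and normal 5, with 2 in each. The log2 fold change was 9.48 (SE 0.80, n = 5 each, edgeR adjusted p = 1.08e-08). It was 8.71 without normal 3 and 10.09 without normal 2 or normal 5. From pooled counts the ratio was 1294 (counting interval 505 to 4750), an interval that covers counting error only. By estimate, background was 2.26% of the counts in SCC, and in normal lung it was larger than the counts themselves.

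Klk10, a secreted kallikrein first described in humans as lost from breast tumour cells, had the widest difference among the proteases. Its levels were 319.6, 289.8, 81.5, 63.7 and 150.3 CPM in SCC 1 to SCC 5, against 0.358, 1.37, 0.293, 0 and 0 CPM in normal 1 to normal 5. SCC 1 and SCC 2 were highest, and the groups did not overlap. Its log2 fold change was 8.76 (SE 0.70, n = 5 each, edgeR adjusted p = 8.06e-09), with 1989 counts in SCC and 5 in normal lung. Background accounted for an estimated 1.12% of the SCC counts, the smallest share among the 8 genes.

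Klk13, a trypsin-like kallikrein of stratified epithelia, had 66.0, 30.6, 30.3, 19.9 and 60.4 CPM in SCC 1 to SCC 5, against 0, 0, 1.03, 0.386 and 7.55 CPM in normal 1 to normal 5. Normal 5 stood apart from the other normal libraries and was still below every SCC library. The log2 fold change was 4.59 (SE 0.87, n = 5 each, edgeR adjusted p = 0.0004). Without normal 5 it was 6.01, and background was estimated at 7.21% of the SCC counts.

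Klk8, known as neuropsin and active in both epidermis and brain of mice, had 15.1, 11.1, 33.0, 14.9 and 37.2 CPM in SCC 1 to SCC 5, against 0.358, 0.684, 2.20, 0 and 6.17 CPM in normal 1 to normal 5. The groups did not overlap, with SCC 3 and SCC 5 highest. The log2 fold change was 3.53 (SE 0.91, n = 5 each, edgeR adjusted p = 0.00596), the smallest of the 5 called members. Without normal 5 it was 4.24, and background was estimated at 9.59% of the SCC counts.

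Klk11, a trypsin-like kallikrein of epidermis and brain, had 31.1, 13.3, 11.0, 26.9 and 7.35 CPM in SCC 1 to SCC 5, against 0.716, 1.37, 0.587, 0 and 0.686 CPM in normal 1 to normal 5. SCC 1 and SCC 4 were highest, and SCC 3, with as high a receptor signal, was below SCC 2. In SCC 3 the counts were 2.28 times the estimated background, the lowest such ratio of the SCC libraries. The part of background in these levels was not tested. The log2 fold change was 4.6 (SE 0.94, n = 5 each, edgeR adjusted p = 0.000818), and background was estimated at 16.1% of the SCC counts. Without SCC 1, SCC 3 and SCC 4, the libraries of high receptor signal, the call was lost (log2 fold change 3.81, edgeR adjusted p = 0.0642).

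Klk14, a trypsin-like kallikrein that activates other kallikreins in human epidermis, did not pass the test. It had 40.5, 22.8, 17.1, 12.95 and 23.3 CPM in SCC 1 to SCC 5, against 41.2, 56.7, 5.43, 40.9 and 23.3 CPM in normal 1 to normal 5. The SCC libraries all lay within the range of the normal libraries, and normal 3, the deepest library, was the lowest. The log2 fold change was -0.66 (SE 0.55, n = 5 each, edgeR adjusted p = 0.44). Klk14 was the most abundant kallikrein per kb of exon in each normal library, between 4.27 and 44.6 CPM per kb, where no other kallikrein was above 4.67. In SCC its background was estimated at 9.02% of the counts and in normal lung at 0.378%.

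Klk7 and Klk12 had too few counts. Klk7, a chymotrypsin-like protease of the human and mouse epidermal surface, had 2.83, 1.35, 17.1, 12.95 and 0.817 CPM in SCC 1 to SCC 5 (54 counts) and at most 0.44 CPM in normal lung (4 counts). Klk12, a trypsin-like kallikrein, had 11.3, 1.35, 6.61, 4.98 and 0.817 CPM in SCC 1 to SCC 5 (36 counts) and no count in any normal library. Both were lowest in SCC 5 and low in SCC 2, the libraries of low receptor signal. Background amounted to an estimated 56.8% of the SCC counts of Klk7 and 53.7% of those of Klk12, and its part in these differences was not tested. The pooled ratio was 20.4 for Klk7 (counting interval 7.51 to 77.5). For Klk12 the pooled ratio was at least 18.1 when the normal group is set to a floor of 3 counts in all. Without the filter both passed the edgeR test, Klk7 at 4.15 (adjusted p = 0.0137) and Klk12 at 6.22 (adjusted p = 0.00314).

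**Figure D2:**
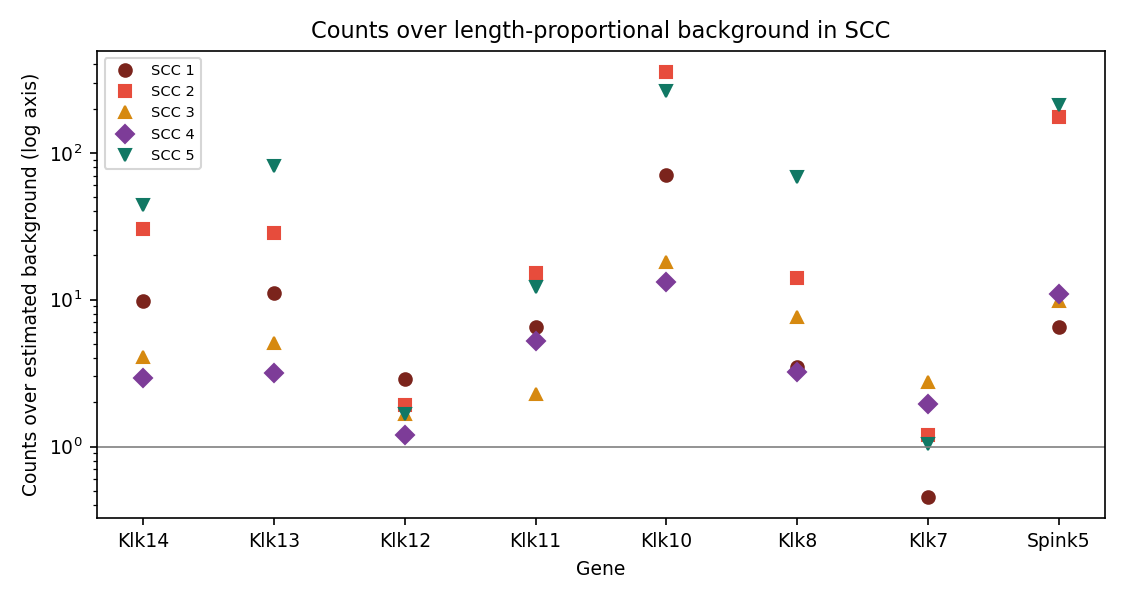
Counts of each gene divided by the background estimated from its exon length, on a log axis, in the 5 SCC libraries, with the grey line at a ratio of 1. Klk10 and Spink5 lie at 6.50 or above in every library, and Klk7 and Klk12 lie between 0.456 and 2.89.

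The calls were made again without SCC 1, SCC 3 and SCC 4, and again after subtraction of the background. In the first of these fits 4 of the 6 members were called higher, where 4.14% of all genes were higher and 5.16% lower. Klk10 was then at 9.05, Spink5 at 10.30, Klk13 at 4.71 and Klk8 at 3.65 on the log2 scale (edgeR adjusted p = 4.32e-09, 1.06e-09, 0.00661 and 0.0443). After subtraction 5 were called higher, where 8.03% of all genes were higher and 6.79% lower. Klk11 was among them at 4.84 (edgeR adjusted p = 0.00414). With the receptor signal as a covariate Klk10 and Spink5 were called, at 9.43 and 11.39, and Klk8, Klk11 and Klk13 were not. Their log2 fold changes were then 3.05 (SE 1.34), 2.70 (SE 1.59) and 3.84 (SE 1.19), with edgeR adjusted p of 0.184, 0.351 and 0.0518. The fit with the covariate called 845 genes in all, against 2791 without it. Every SCC library had a higher receptor signal than every normal library (at least 0.413 against at most 0.209). Signal and group therefore cannot be fully told apart in that fit.

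**Figure D3:**
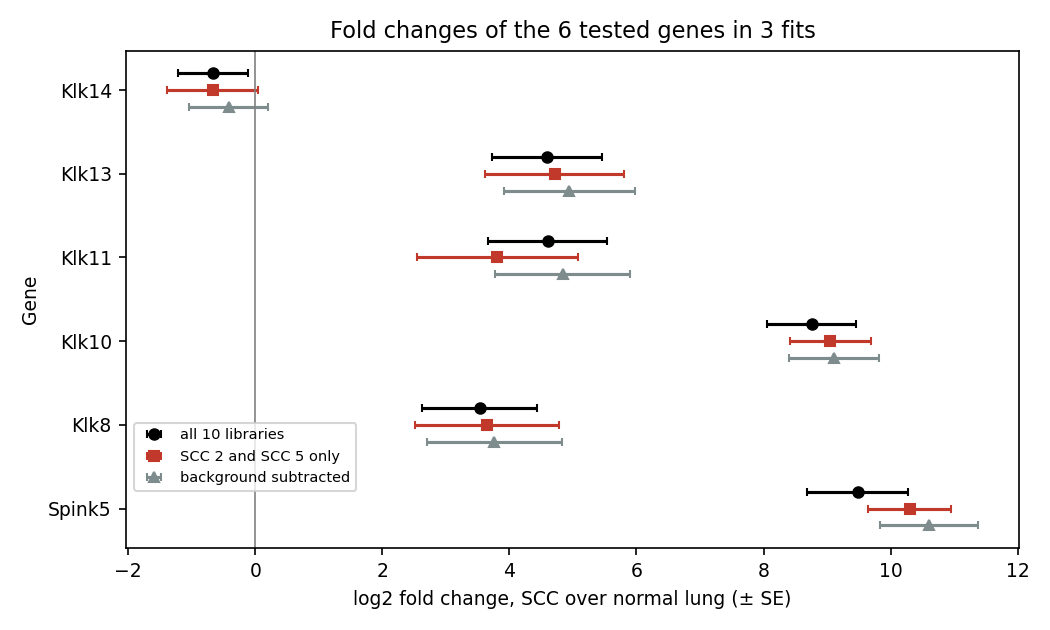
Log2 fold change with its SE for the 6 tested genes, SCC over normal lung, with all 10 libraries (black circles), without SCC 1, SCC 3 and SCC 4 (red squares) and after background subtraction (grey triangles). Klk14 lies between -0.67 and -0.42, and the other 5 genes lie between 3.53 and 10.61.

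The members differed in which SCC libraries carried them most. Spink5 was lowest in SCC 1, where Klk10, Klk11, Klk12, Klk13 and Klk14 were highest. Klk8 and Klk7 peaked elsewhere, Klk8 in SCC 5 and Klk7 in SCC 3. From the lowest to the highest SCC library the level moved by 3.13 times for Klk14, 3.31 for Klk13, 3.35 for Klk8, 4.23 for Klk11, 4.87 for Spink5 and 5.01 for Klk10.

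Protease and inhibitor were set side by side per kb of exon. Klk10 exceeded Spink5 in all 5 SCC libraries, at 10.9, 2.04, 1.84, 1.21 and 1.25 times its level in SCC 1 to SCC 5. This order rests on the division by exon length (1.373 kb for Klk10 and 4.785 kb for Spink5). In CPM Klk10 was above Spink5 in SCC 1 and below it in the other 4 libraries, with a median ratio of 0.529. The 7 kallikreins together stood at 16.2, 2.56, 4.24, 2.81 and 2.24 times Spink5 per kb, with a median of 2.81, against 0.849 in CPM. SCC 1 was thus far from the other 4, whose ratios spanned 2.24 to 4.24. In SCC 1 Klk13 and Klk14 were also above Spink5 (1.71 and 1.5), and in the other 4 libraries every kallikrein but Klk10 was below it. Spink5 lies on chromosome 18 (43963235 to 44022501, plus strand) and overlaps no other annotated exon. No test was made, and no ratio was formed in normal lung, where Spink5 had at most 2 counts a library.

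**Figure D4:**
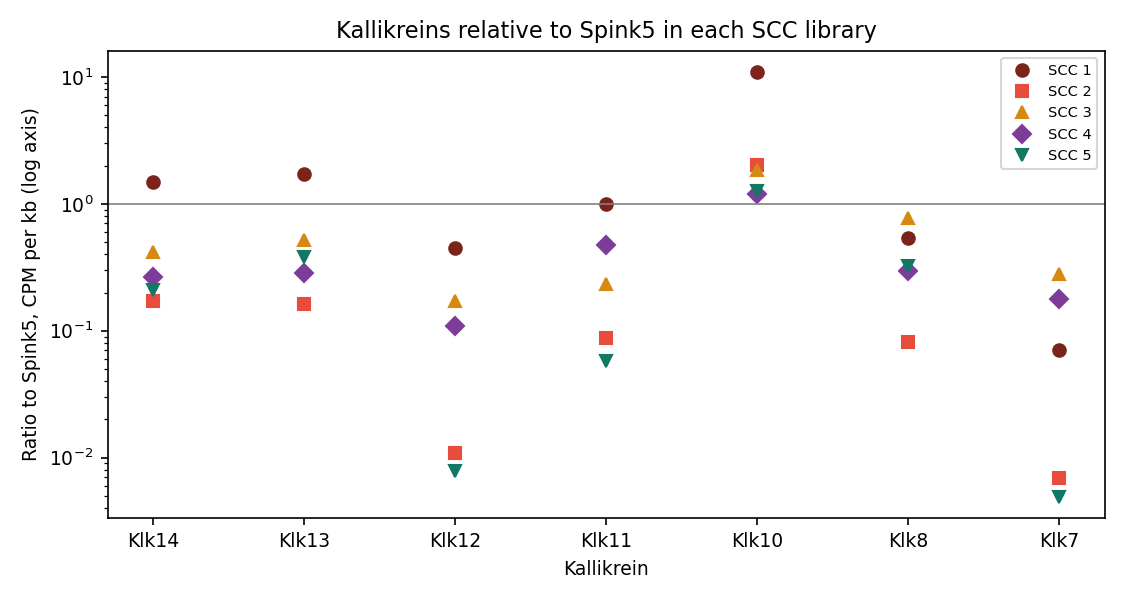
Level of each kallikrein over that of Spink5, both in CPM per kb of exon, in each of the 5 SCC libraries, on a log axis with the grey line at equal levels. Klk10 lies above the line in each library, between 1.21 and 10.9, and SCC 1 has the highest ratio for each kallikrein other than Klk7 and Klk8, which are highest in SCC 3.

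The order of the kallikreins per kb began with Klk10 in each SCC library, at 46.4 to 232.8 CPM per kb. Below it Klk13, Klk14, Klk8 and Klk11 changed places between libraries, with means of 22.9, 18.3, 16.8 and 12.25 CPM per kb. Their ranges over the SCC libraries overlapped, at 11.0 to 36.5, 10.2 to 31.9, 8.40 to 28.1 and 5.02 to 21.3 CPM per kb. Klk12 and Klk7 came last on average, at 4.2 and 3.70 CPM per kb.

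Beyond the members, none of the 19 other kallikreins of the cluster passed the filter on low counts. Without the filter 8 of them were called higher, with DESeq2 7, with a filter of 1 CPM in 5 libraries 3, and 1 without SCC 2 or without any 1 of the normal libraries. Together they had 441 counts in SCC and 42 in normal lung, and the background was estimated at 73.8% of the SCC counts, against 5.42% for the 7 members. Klk9, the neighbour of Klk10 and Klk8, had the most, 106 counts in SCC and 11 in normal lung, with background at 22.5%. The 13 Klk1b genes, glandular kallikreins of mice whose near-identical copies make their counts uncertain, had 156 counts in SCC, fewer than the background estimate (133.2%). Klk5, which in human epidermis starts the cascade, had 16 counts in SCC and 4 in normal lung, with background at 125.3% of the SCC counts. It had too few counts for the test, so whether it differs was not tested. Markers of gland acini (Lpo, Bpifa2, Dcpp1, Amy1 and Smgc) summed to 1.23 to 28.9 CPM in SCC and 0 to 2.74 CPM in normal lung, and none of them passed the filter. The sums were 19.8, 13.8 and 28.9 CPM in SCC 1, SCC 3 and SCC 4, the libraries of high receptor signal. In SCC 2 and SCC 5 they were 8.94 and 1.23 CPM, and the part of background in them was not tested.

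**Figure D5:**
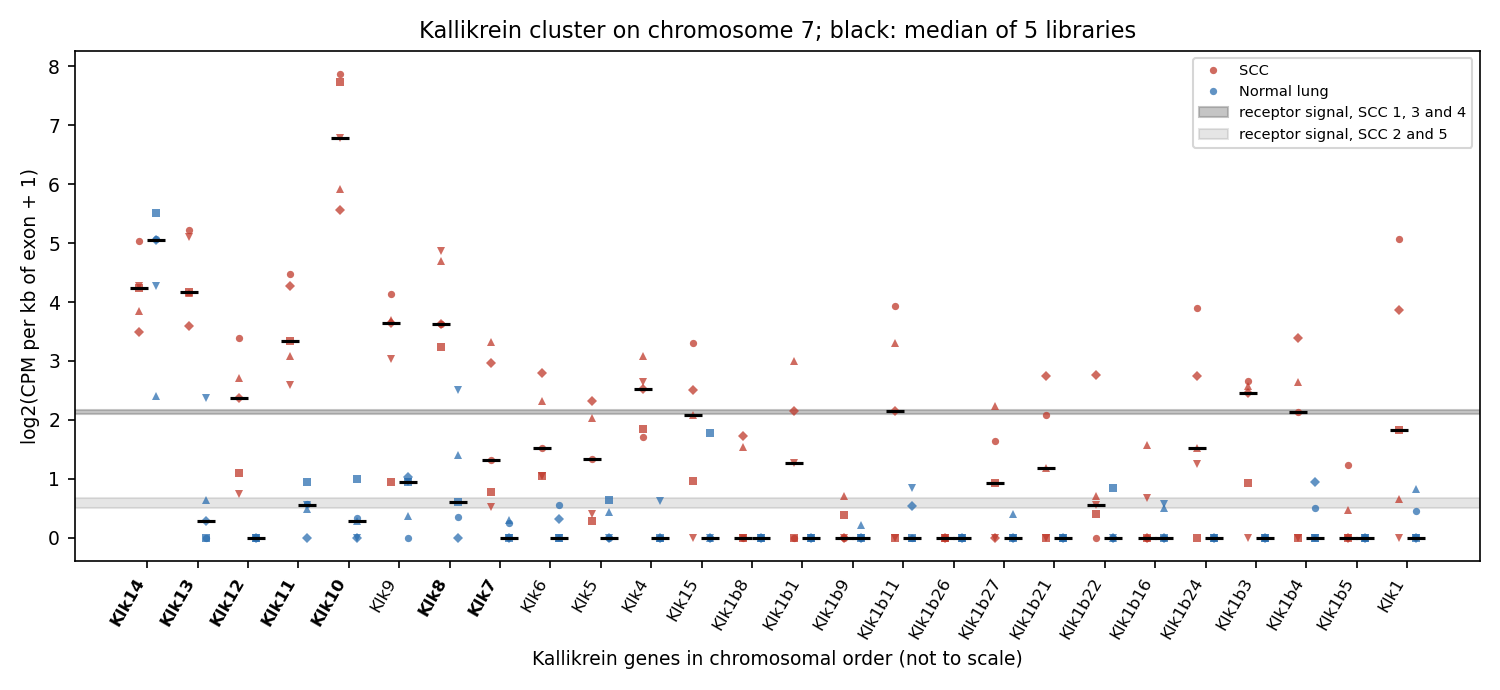
Log2(CPM per kb of exon + 1) of the 26 kallikrein genes in chromosomal order, members in bold, with red for SCC, blue for normal lung, shapes for replicates and black dashes for the median of 5 libraries. Grey bands show the receptor signal of the SCC libraries. Klk8, Klk10, Klk11 and Klk13 lie above the bands in every SCC library, Klk14 is above them in both groups by its median, and the medians of most Klk1b genes lie on or below the upper band.

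Other proteases of stratified epithelium were taken from a list of 25 genes. Of its 15 tested members 6 were higher and 1 lower, with a median log2 fold change of 1.09 against 0.07 over all genes tested, of which 12.5% were higher and 8.68% lower. Without any 1 of the normal libraries 10 or 11 were higher. Type II transmembrane serine proteases had the smallest p, Tmprss11g at 5.0 (SE 0.59), Tmprss11e at 7.27 (SE 1.08), Tmprss13 at 5.52 (SE 0.82) and Tmprss4 at 3.74 (SE 0.71), with edgeR adjusted p of 1.15e-06, 2.39e-05, 2.59e-05 and 0.000372. Background was estimated at 4.82%, 14.7%, 17.2% and 6.26% of their SCC counts. Their means in normal lung were 2.94, 0.154, 0.558 and 4.43 CPM, under the filter limit of 4.69 CPM. They needed SCC libraries to pass the filter, so the count and median of this list are a description. Tmprss11e, with 2 counts in normal lung, was at 6.38 without SCC 5, 6.63 without normal 3 and 9.27 without normal 4, and after background subtraction it failed the filter. Without SCC 1, SCC 3 and SCC 4 each of these Tmprss genes was still called. With the receptor signal as covariate Tmprss11g, Tmprss11e and Tmprss13 were called and Tmprss4 was not (2.51, edgeR adjusted p = 0.254). The member that fell was Ctsc, a cathepsin that activates serine proteases of blood cells, at 43.4 ± 13.2 CPM in SCC and 121 ± 25.1 CPM in normal lung (SD, n = 5 each, log2 fold change -1.58, edgeR adjusted p = 0.00188). Without those 3 SCC libraries it was not called (-1.23, edgeR adjusted p = 0.052). The macrophage markers, for comparison, summed to 127 to 222.5 CPM in SCC and 188 to 268 CPM in normal lung, and their part was not tested.

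Of 24 further protease inhibitors 7 were tested, and 4 were higher and 0 lower (median 1.20), where 12.5% of all genes were higher and 8.68% lower. The count was 2 without SCC 5, 2 without SCC 1, SCC 3 and SCC 4, and 2 with the receptor signal as covariate. Serpina12, vaspin, which inhibits KLK7 in humans, was at 3.65 (edgeR adjusted p = 0.00783) and Wfdc5, a whey acidic protein family member, at 3.72 (edgeR adjusted p = 0.0126). Without SCC 1, SCC 3 and SCC 4 neither was called (1.57 and 3.18, edgeR adjusted p = 0.576 and 0.187), and background made up an estimated 38.0% and 32.7% of their SCC counts. Wfdc5 was at 4.68 without normal 2 and Serpina12 at 4.33 without normal 5. In normal lung Wfdc5 averaged 1.04 CPM and Serpina12 1.79 CPM, under the filter limit of 4.69 CPM. Both needed SCC libraries to pass the filter, so the count and median of this list are a description. Spint1 and Spint2, Kunitz-type inhibitors of matriptase and prostasin, were at 1.81 and 1.20 (edgeR adjusted p = 0.0141 and 0.0409). Spint1 lost its call without SCC 2, normal 1 or normal 2 (edgeR adjusted p up to 0.0854), and Spint2 in 8 of the 10 fits that left out 1 library (edgeR adjusted p up to 0.156). Both were called without SCC 1, SCC 3 and SCC 4, and Spint2 was not called with limma-voom (0.06, adjusted p = 0.896) or without the filter (0.90, edgeR adjusted p = 0.105). None of the other Spink genes passed the filter, and the Spink member with the most counts after Spink5 was Spink2, with 40 in SCC and 3 in normal lung.

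Substrates and receptors of these proteases went both ways in the fit of all 10 libraries without a covariate. Of 10 tested members of a list of 18, 4 were higher and 2 lower (median 0.74), where 12.5% of all genes were higher and 8.68% lower. After background subtraction 2 of 8 were higher and 1 lower (median 0.51). The counts were 3 higher and 0 lower without SCC 1, SCC 3 and SCC 4, and the same with the receptor signal as covariate. The desmosomal cadherins Dsg3, with 224.8 ± 191.9 CPM in SCC and no count in normal lung, and Dsc3, with 133.9 ± 183.6 CPM in SCC and 0.137 ± 0.307 CPM in normal lung (SD, n = 5 each), had the smallest p (edgeR adjusted p = 3.87e-08 and 2.19e-07). The log2 fold change of Dsc3, 10.13, was 8.60 without SCC 5, 9.44 without normal 3 and 11.44 without normal 5. Dsg1b, a desmosomal cadherin that kallikreins cut in human epidermis, was at 4.94 (edgeR adjusted p = 0.000483) and Flg2, a filaggrin family protein, at 5.25 (edgeR adjusted p = 0.000164). Background was estimated at 32.2% and 46.3% of their SCC counts, and after its subtraction neither passed the filter. Dsg3, Dsc3, Dsg1b and Flg2 averaged 0, 0.137, 0.624 and 0.815 CPM in normal lung, under the filter limit of 4.69 CPM. They needed SCC libraries to pass the filter, so the count and median of this list are a description. Flg2 was at 4.61 without SCC 3, and was not called without SCC 1, SCC 3 and SCC 4 (3.98, edgeR adjusted p = 0.0538). F2r, the thrombin receptor PAR1, was at 86.9 ± 72.95 CPM in SCC and 237.7 ± 42.95 CPM in normal lung (SD, n = 5 each, -1.59, edgeR adjusted p = 0.00719), and the lysosomal sphingomyelinase Smpd1 at -1.49 (edgeR adjusted p = 0.0155). F2r was at -2.25 without SCC 2. Without SCC 1, SCC 3 and SCC 4 neither F2r nor Smpd1 was called (-0.96 and -1.04, edgeR adjusted p = 0.159 and 0.252). F2rl1, the receptor PAR2 that kallikreins activate in human skin, named here after its values were seen, was at 19.3 ± 13.1 CPM in SCC and 10.15 ± 6.42 CPM in normal lung (SD, n = 5 each), a difference that did not pass the test (0.75, SE 0.72, edgeR adjusted p = 0.51).

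Of a list of 21 keratins and other genes of squamous epithelium, 16 were tested and 16 called higher (median 7.36), where 12.5% of all genes were higher. Of the tested genes only Ppl and Evpl averaged above the filter limit of 4.69 CPM in normal lung, at 99.8 and 15.15 CPM. Krt13, Krt6a, Sprr1a and Cnfn had no count there. All but Ppl and Evpl needed SCC libraries to pass the filter, which makes the count a description. Of the same list, 15 of 18 tested were higher without SCC 1, SCC 3 and SCC 4. Those of smallest p were the keratins Krt4, Krt13, Krt6a and Krt5, at 894.8, 267.9, 364 and 605 CPM on average in SCC and 0.392, 0, 0 and 1.70 CPM in normal lung (edgeR adjusted p = 2.37e-09, 9.42e-09, 1.46e-08 and 3.87e-08). Lor and Krt1, genes of cornifying epidermis, did not pass the filter, with 8 and 60 counts in SCC and 0 and 11 in normal lung. Krt10, Sprr3 and Crct1 of the same list also failed it. Ivl, Tgm1, Tgm3, Sprr1a, Sprr1b, Sprr2a3, Cnfn, Ppl and Evpl were called higher, from 1.69 for Ppl to 10.67 for Sprr1a.

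Genes of similar profile were sought among 13006 tested genes that averaged 5 CPM or more in SCC. Each gene's log2 CPM was centred on its own mean, and likeness was the root mean square difference from the mean profile of the 6 tested members over 10 libraries. The nearest were Paqr5 (0.372), Ces2f (0.379), Ttc22 (0.47), Lipm (0.521) and Ppfia3 (0.536). The members themselves lay at 0.769 to 2.47, with Klk14 the farthest. Background was estimated at 8.65% to 29.5% of the SCC counts of the 5 nearest genes. Ces2f, a carboxylesterase, had 30.5 ± 14.55 CPM in SCC and 0.411 ± 0.613 CPM in normal lung, and Lipm, an epidermal lipase, had 17.8 ± 6.03 CPM in SCC and 0.088 ± 0.197 CPM in normal lung (SD, n = 5 each).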

How the data were processed

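The deposited table holds read counts per gene symbol, raw whole numbers for 10 libraries. Per the labels' protocols, RNA came from laser-captured regions and libraries were made with a stranded total RNA kit for picogram inputs. The submitters' processing notes name the build mm10 and, with no order, HTSeq 0.6.1, TopHat2 2.0.1, cutadapt 1.9.1 and DESeq2. Strand setting, annotation and treatment of multiply mapped reads were not given in the sources used here.

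CPM was computed on the total counts of a library. The test was the quasi-likelihood test of edgeR 4.0.16 (R 4.3.3) with robust estimation, TMM factors, filterByExpr by group (13203 genes) and no covariate. The SE was the size of the log2 fold change over the square root of F. Limma 3.58.1 and DESeq2 1.42.0 served as alternatives. Exon lengths came from the basic set of GENCODE M21, which matched 24020 genes, 644 by an older symbol. The background was the counts per kb on 1437 receptor genes, each library capped at the 98th percentile, times the exon length. No pair of libraries in a group agreed within sampling noise.

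The members, the gene lists, the alternatives and the set of SCC 2 and SCC 5 were chosen with earlier results of these data known. Named were the members, the 4 tested genes of smallest p in each list with every gene called lower, and the 5 genes nearest in profile. Genes named beyond these, among them Lor, Krt1, Ivl and Klk5, fall outside this rule.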

Additional observations from a re-analysis of the deposited data

Results flagged for a closer look

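Libraries that lay far from the rest of their group were sought for each member in each group of 5 and for each ratio to Spink5 in SCC, 23 sets in all. A library was marked where its gap to the next value exceeded 0.71 of the range of its set (Dixon's rule). Chance marks about 1 in 20 such sets if the values are normally distributed. That was not checked, and several sets hold small counts or ratios. The 5 sets marked are therefore a description and are not set against chance. Klk10 was at 1.37 CPM in normal 2, a value of 2 counts. Klk13 was at 7.55 CPM in normal 5, where the other normal libraries had at most 1.03. Per kb of exon, SCC 1 stood apart in the ratio to Spink5 of Klk10 (10.9), Klk13 (1.71) and Klk14 (1.5). These 3 ratios share 1 denominator, the 108 counts of Spink5 in SCC 1. After background subtraction they were 12.8, 1.86 and 1.61.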

How the results depend on the processing

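Of the 562 recomputed values of the 30 named genes, 531 kept their direction and their side of the threshold, 30 lost the call and 1 turned. A further 8 values could not be had because the gene failed the filter, those of Tmprss11e, Serpina12, Flg2, Dsg1b, Ttc22, Lipm and Ppfia3 after background subtraction and that of Serpina12 without SCC 5. The value that turned was that of Serpina12, at -0.35 (edgeR adjusted p = 0.932) with the receptor signal as covariate, and the cause was not tested. The count of members called higher was 5 with each scaling, with 1 CPM in 5 libraries as the filter, with limma-voom, after background subtraction and in each fit that left out 1 library, 7 where Klk7 and Klk12 were also tested (no filter, DESeq2), 4 with SCC 2 and SCC 5 alone and 2 with the receptor signal as covariate. Upper-quartile factors moved the median gene by 0.20 and changed no member's call.

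The number of genes called, 2791, was 7542 without a filter, 4697 at 1 CPM in 5 libraries, 7654 with DESeq2, 6025 with limma-voom, 1330 with SCC 2 and SCC 5 alone, 1707 after background subtraction and 845 with the covariate. Calls within the 5 lists numbered 33, and 60 without a filter and 58 with DESeq2. The cause was not tested. Leaving out 1 library gave 2313 to 3534 genes called. No paired analysis was made, since the SCC was induced with NTCU, the normal lung was without treatment, and the labels give no pairing. The kallikrein sum over Spink5 (median 2.81) was 0.849 without division by length and 2.53 after subtraction. Low depth and background limit Klk7, Klk12 and the other kallikreins.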

Other observations

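Several list genes with too few counts for the filter had more than 100 counts in SCC and were picked after their values were seen. Tmprss11a, a membrane serine protease, had 461 counts in SCC, 376 of them in SCC 5, and none in normal lung. From pooled counts, with a floor of 3 counts for the normal group, it was at least 232-fold higher. That ratio rests mostly on SCC 5, at 153.5 CPM, where the other SCC libraries had 3.79 to 22.0 CPM. Prss27, a membrane-anchored protease also called marapsin, had 160 counts in SCC and none in normal lung. It was at least 80.5-fold higher from pooled counts on the same floor, with 3.98 to 23.3 CPM across the SCC libraries. Cdsn, the corneodesmosome protein that kallikreins cut in human epidermis, had 130 counts in SCC and 6 in normal lung, with background at an estimated 33.3% of the SCC counts. Cst6, a cystatin of cornifying epithelium, had 204 counts in SCC and 10 in normal lung, with background at 31.3%. Klk1, the tissue kallikrein of glands, had 33 of its 56 SCC counts in SCC 1 and none in SCC 5.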
